A study of Homo sapiens with 4 samples.

Results

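The subunits of RNA polymerase II, of the Mediator complex, of TFIID with the other TBP-associated factors (TAFs), and of the general transcription factors TFIIA, TFIIB, TFIIE, TFIIF and TFIIH were examined in H9 cells, an established line of human embryonic stem cells. Members were taken by gene symbol alone (the POLR2A to POLR2M series, the numbered MED genes with the kinases CDK8 and CDK19 and their cyclin CCNC, TBP and the numbered TAF genes, and the GTF2A to GTF2H genes), with pseudogenes left out. The rule returned 83 of the 60671 genes listed: 13 of RNA polymerase II, 33 of Mediator, 25 of TBP and the TAFs and 12 of the general factors. RNA with a poly(A) tail had been sequenced from 4 libraries, 2 labelled control and 2 labelled as cells edited in the CFIm25 gene that also carry 3Flag-tagged CFIm25, called KO+OE here. The study describes its controls as mock-transfected cells and the edited cells as the single clone m3, which kept a low level of a shortened protein and received the tagged protein from a lentivirus. All cells were kept in mTeSR medium, and in the study puromycin selection of CRISPR cultures preceded the picking of clones. Beyond this and the lentivirus, no treatment of these cells is named. The labels differ on whether the edit is a knockout or a knockdown. Edited cells without the tagged protein were not analysed here, so the comparison asks how far transcripts of the polymerase and its partners in the re-expressing clone stood from those of control cells. No source says that the libraries of a group came from separate cultures, so the p-values below measure only the spread between libraries, which may be technical.

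RNA polymerase II transcribes the protein-coding genes. Its largest subunit carries the repeated C-terminal tail that is phosphorylated as transcription proceeds, and its core subunits are present in equal copy number in the enzyme. TFIID, built of TBP and TAFs, recognises the promoter, the general factors complete the assembly and open the DNA, and Mediator joins activators to the polymerase through its tail, middle and head modules, with a dissociable kinase module that can block the contact. In embryonic stem cells Mediator is known for its part at the enhancers of pluripotency genes.

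The values come without a named unit and were read as TPM, which corrects for transcript length and sets libraries to the same sum. On that reading, levels of different genes can be set side by side. The sums alone do not show that length was corrected, and the transcript lengths used are not given in the sources used here. The libraries summed to 986853 to 987078 TPM with 12179 to 12332 genes at 1 TPM or more, and no read counts are held, so depth is unknown. All 9 markers of embryonic stem cells were at 15.9 TPM or more in every library and summed to 3350 to 3380 TPM. Of 14 markers of endoderm, mesoderm, ectoderm and trophectoderm, 11 had a mean below 1 TPM with SOX17 listed at 0 throughout. GATA6 (4.35 to 8.39 TPM), NES (79.6 to 82.8 TPM) and KRT7 (17.3 to 20.6 TPM) were above it, and the list summed to 105 and 111 TPM in control and to 105 and 109 TPM in KO+OE. The edited gene, NUDT21, stood at 161 and 152 TPM in control and 162 and 157 TPM in KO+OE, so its RNA does not tell the groups apart.

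POLR2A and POLR2B, the 2 largest subunits of the polymerase, differed widely in transcript level, as described below, and the 250 bases before their annotated starts are shown for this reason, 5′ to 3′, with every CG pair in capitals. POLR2A starts at position 7484366 of chromosome 17 and POLR2B at position 56978896 of chromosome 4, both on the plus strand, and the windows are chr17:7484116-7484365 and chr4:56978646-56978895 in RefSeq on GRCh38.p14.
POLR2A: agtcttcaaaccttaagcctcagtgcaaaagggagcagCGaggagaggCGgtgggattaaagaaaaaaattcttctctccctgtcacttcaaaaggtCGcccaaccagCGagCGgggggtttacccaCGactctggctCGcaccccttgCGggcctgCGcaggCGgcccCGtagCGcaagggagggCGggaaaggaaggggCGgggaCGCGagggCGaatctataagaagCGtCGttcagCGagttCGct
POLR2B: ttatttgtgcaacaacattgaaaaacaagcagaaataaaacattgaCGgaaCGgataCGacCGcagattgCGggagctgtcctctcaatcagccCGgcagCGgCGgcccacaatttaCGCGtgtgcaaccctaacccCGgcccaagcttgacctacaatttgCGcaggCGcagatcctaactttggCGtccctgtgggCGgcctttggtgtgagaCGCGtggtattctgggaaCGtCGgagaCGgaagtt
The windows hold 21 and 20 CG pairs and have a GC content of 59.6% and 54.0%, so they are alike in CG pairs. For the 66 of 83 members with an entry, the median was 19 CG pairs (quartiles 14 and 24), against 11 (quartiles 3 and 23) over 27305 promoters. The TATA box, searched as TATAAA on both strands from 250 bases before to 50 bases after the start, was found in 5 of the 66 members (7.58%; GTF2B, MED16, MED7, POLR2M and TAF4B) and in 11.95% of all promoters. CCAAT, searched in the same way, was found in 23 members (34.8%), TBP among them, and in 35.7% of all promoters. Neither POLR2A nor POLR2B held either motif, and these matches are descriptions of letters only.

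Transcripts of the polymerase subunits were far from equal. POLR2E (ENSG00000099817), a subunit shared by all nuclear RNA polymerases, was the highest at 425 and 411 TPM in control and 426 and 426 TPM in KO+OE. POLR2B (ENSG00000047315), the second-largest subunit, which forms the active centre together with POLR2A, was the lowest at 3.79 and 4.39 TPM in control and 5.0 and 4.06 TPM in KO+OE. Between them stood POLR2A (ENSG00000181222), the catalytic subunit, at 127 and 123 TPM in control and 133 and 133 TPM in KO+OE. POLR2A therefore exceeded POLR2B 33.5-fold and 28.0-fold in the control libraries and 26.6-fold and 32.8-fold in the KO+OE libraries. The groups overlapped in this ratio, and the partners of the active centre were about equally far apart in every library.

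Relative to the median of the 12 core subunits in the same library (119 to 122 TPM), POLR2E stood at 3.44 to 3.60, POLR2A at 1.03 to 1.12 and POLR2B at 0.0314 to 0.041. The stalk, which binds the emerging RNA, consists of POLR2D and POLR2G. POLR2G was at 190 and 193 TPM in control and 193 and 189.5 TPM in KO+OE, while POLR2D was at 23.3 and 23.9 TPM and at 26.4 and 22.3 TPM, so that POLR2G exceeded POLR2D 7.31-fold to 8.49-fold. Shared subunits differed as well, with POLR2E 47.4-fold to 57.5-fold over POLR2K. The other shared subunits POLR2F, POLR2L and POLR2H lay between 104 and 184 TPM, and the assembly partners POLR2C and POLR2J between 63.7 and 78.8 TPM. The level of POLR2J is uncertain because near-identical copies of it exist. The upper quartile of the mean TPM over the 13 genes was 7.29-fold above the lower quartile, or 3.23-fold when POLR2M, which associates with the enzyme and is no core subunit, was left out.

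**Figure D1:**
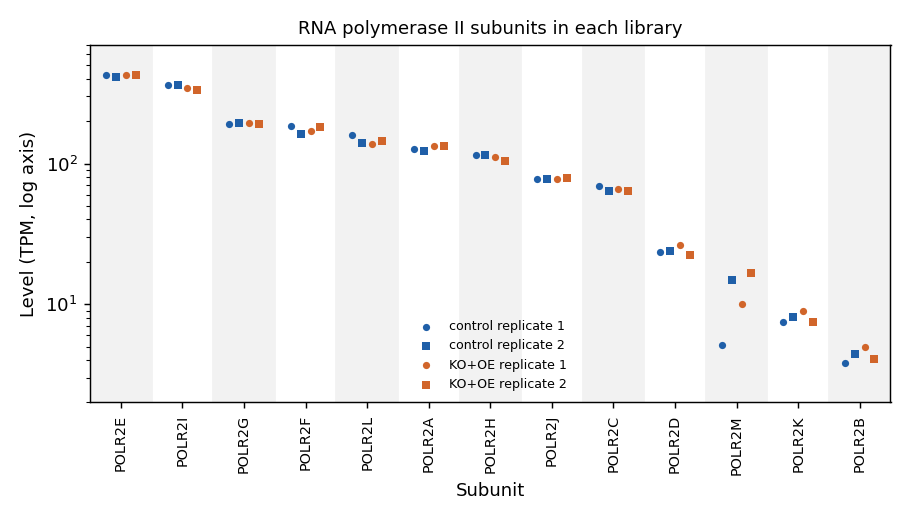
Level of the 13 RNA polymerase II genes (x axis, ordered by mean) in TPM on a log axis (y axis), with 1 point per library, blue for control and orange for KO+OE, circles for replicate 1 and squares for replicate 2. The points of 1 gene lie close together, from POLR2E at 411 to 426 TPM to POLR2B at 3.79 to 5.0 TPM, and POLR2M shows the widest scatter.

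Between the groups the polymerase subunits differed little. Differences were tested with limma on log2(TPM + 1), on which scale the change of low genes is understated, with Benjamini-Hochberg adjustment across the 12319 genes whose mean reached 1 TPM. None of the 13 passed an adjusted p of 0.05, and 1 passed an unadjusted p of 0.05 (7.69%, against 5.33% of all genes tested). POLR2I, a core subunit that helps the enzyme to correct errors, was at 363 and 361 TPM in control and 342 and 333 TPM in KO+OE, without overlap. Its mean was 362 ± 1.73 TPM against 338 ± 5.81 TPM (n = 2 each, SD), a log2 fold change of -0.10 (95% interval -0.18 to -0.02) with an unadjusted p = 0.0202 and an adjusted p = 0.928 from limma.

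POLR2A lay higher in both KO+OE libraries by a small amount, 125 ± 3.00 TPM against 133 ± 0.177 TPM, and limma gave a log2 fold change of 0.09 (-0.01 to 0.19) with an adjusted p = 0.931. POLR2M was at 5.11 and 14.96 TPM in control and 10.05 and 16.67 TPM in KO+OE. It had the largest positive log2 fold change of the polymerase genes, 0.50, but an interval of -0.77 to 1.77. The libraries of each group were far apart from each other, and the value is uncertain because POLR2M overlaps neighbouring genes. The intervals of the other 12 genes lay within 2-fold in either direction on the log2(TPM + 1) scale. POLR2B, POLR2D and POLR2G had log2 fold changes of 0.12, 0.04 and -0.0024, and over all 13 genes the median was 0.03 with 8 above and 5 below 0.

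The median Mediator transcript was lower than that of the polymerase, although POLR2B and POLR2K lay below many Mediator genes, and the medians of the modules differed. The tail, which meets the activators, had a median of 42.9 to 44.97 TPM per library, and the subunits at the junction of head and tail 24.3 to 28.4 TPM. The head, which contacts the polymerase, had a median of 10.05 to 10.5 TPM, the middle 2.46 to 4.44 TPM and the kinase module 1.93 to 2.89 TPM. MED14, the scaffold that holds the modules together, was at 5.36 and 4.47 TPM in control and 4.68 and 5.02 TPM in KO+OE. The order of these medians was the same in all 4 libraries for tail, junction, head and kinase module, and MED14 lay above the middle module and below the head in each. The median GC content of the canonical transcripts largely moved with this order, except between junction and head and at MED14. It was 61.0% for the tail, 48.4% for the junction, 48.8% for the head, 44.8% for the middle and 43.6% for the kinase module. MED14 had 41.3%, below the middle and kinase modules, though its level lay above their medians. The part of GC content in the order was not tested. Single genes departed from the order of the modules, such as MED23 of the tail at a mean of 0.60 TPM and MED19 of the middle at 24.3 TPM.

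Each module also held unequal members. In the tail, MED16 was the highest Mediator gene by mean, at 69.3 and 69.5 TPM in control and 61.4 and 70.9 TPM in KO+OE, and MED24 lay beside it at 64.8 to 70.0 TPM, within the spread of MED16. MED23, another tail subunit, was at 0.55 to 0.65 TPM in every library, so that MED16 exceeded it 106-fold to 129-fold. MED17, the central subunit of the head, was the lowest of its module at 2.30 and 2.71 TPM in control and 1.89 and 2.09 TPM in KO+OE, while MED22 reached 27.5 to 31.7 TPM. MED1, which binds nuclear receptors, was at 1.27 and 1.47 TPM in control and 1.03 and 1.15 TPM in KO+OE. MED26, which brings elongation factors to the polymerase, was at 6.89 and 7.21 TPM and at 7.24 and 6.86 TPM, with a log2 fold change of -0.00012. MED7, the lowest of the middle module, stood at 0.41 to 0.61 TPM. The quartiles of the 33 genes were 10.8-fold apart, and 9.35-fold for the 30 genes without the paralogs CDK19, MED12L and MED13L.

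In the kinase module the activator MED12 was the most abundant by far, at 16.4 and 17.7 TPM in control and 16.6 and 14.5 TPM in KO+OE. The kinase CDK8 was at 2.48 and 2.89 TPM in control and 2.11 and 2.27 TPM in KO+OE, and its cyclin CCNC at 3.13 and 3.23 TPM and at 2.79 and 3.85 TPM. CDK19, the alternative kinase, was at 2.37 and 6.13 TPM in control and 2.39 and 1.93 TPM in KO+OE, so 1 control library stood apart from the other 3 libraries. The ratio of CDK8 to CDK19 was therefore 0.472 in that library and 0.883 to 1.18 in the others. MED13, which tethers the module to Mediator, was at 0.44 and 0.60 TPM in control and 0.77 and 0.66 TPM in KO+OE, below its paralog MED13L at 1.80 to 2.11 TPM. MED12L, the paralog of MED12, was at 0.38 and 0.42 TPM in control and 0.61 and 0.51 TPM in KO+OE. MED12 exceeded MED12L in every library, and MED13L exceeded MED13 in every library.

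**Figure D2:**
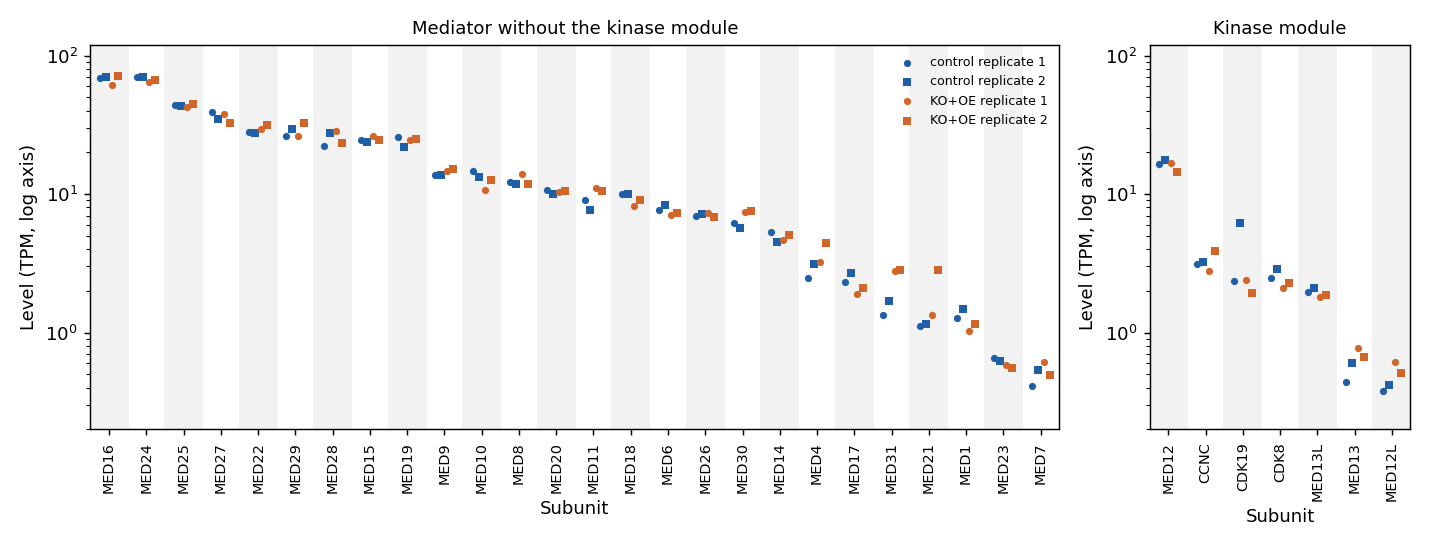
Level of the 33 Mediator genes in TPM on a log axis, with the kinase module on the right and the other subunits on the left, each ordered by mean, 1 point per library with colours for the groups and shapes for the replicates. Levels run from about 70.9 TPM for MED16 to below 1 TPM for MED23, MED7, MED13 and MED12L, and 1 control point of CDK19 stands above the other 3.

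Of the 29 Mediator genes whose mean reached 1 TPM, 0 passed an adjusted p of 0.05 in limma and 3 passed an unadjusted p of 0.05 (10.3%, against 5.33% of all genes tested). All 3 were higher in KO+OE, a direction in which 2.26% of all genes tested passed. MED31, a small subunit of the middle module at chr17:6643311-6651605 (GRCh38.p14), was at 1.34 and 1.69 TPM in control and 2.78 and 2.81 TPM in KO+OE. The groups did not overlap, with means of 1.52 ± 0.248 TPM and 2.80 ± 0.0212 TPM (n = 2 each, SD), and the log2 fold change was 0.60 (0.19 to 1.01; limma, unadjusted p = 0.0133, adjusted p = 0.928). With 1 library left out, its log2 fold change was 0.50 to 0.70. Those fits reuse the libraries by which MED31 was picked, so they are no separate support.

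MED11, a head subunit, was at 9.07 and 7.61 TPM in control and 11.06 and 10.56 TPM in KO+OE (log2 fold change 0.34, limma, unadjusted p = 0.0275, adjusted p = 0.928). MED30, at the junction of head and tail and found in animals but not in yeast, was at 6.17 and 5.71 TPM in control and 7.47 and 7.56 TPM in KO+OE (log2 fold change 0.30, limma, unadjusted p = 0.0320, adjusted p = 0.928). Both genes were separated between the groups, but the separation was not beyond what the test over all genes allows. CDK19 had the most negative log2 fold change of all members, -0.64, with an interval of -1.59 to 0.32 and an adjusted p of 0.938 in limma. This value rested on control replicate 2, without which it was -0.097, and it was -1.18 without control replicate 1. CDK8, MED17, MED1, MED12 and MED13L had log2 fold changes of -0.21, -0.23, -0.18, -0.13 and -0.10, each with an interval that included 0, and those of CCNC, MED14 and MED16 were 0.04, -0.01 and -0.07. The median over the 29 genes was 0.0016, with 15 above and 14 below 0.

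TBP and the TAFs had the widest range. TAF10, a histone-fold subunit that also belongs to the SAGA coactivator, was the highest at 186 and 201 TPM in control and 185 and 197 TPM in KO+OE. TAF6, the histone-fold partner of TAF9, came next at 105 and 105 TPM in control and 98.9 and 95.03 TPM in KO+OE. TAF5, the WD40-repeat subunit around which TFIID is built, was at 0.49 and 0.40 TPM in control and 0.61 and 0.45 TPM in KO+OE, so that TAF10 exceeded it 303-fold to 501-fold. TAF1, the largest TFIID subunit, was also low, at 1.26 and 1.21 TPM in control and 1.81 and 0.92 TPM in KO+OE. TBP, which binds the TATA box, was at 8.58 and 8.91 TPM in control and 8.35 and 6.42 TPM in KO+OE, close to the median of the 14 TFIID subunits in each library (6.11 to 7.79 TPM). The quartiles were 21.0-fold apart over the 25 genes and 11.3-fold over those 14.

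The cells held unequal amounts of the paralogs that can replace a TFIID subunit or serve SAGA instead. TAF4, the subunit that takes up activator signals, was at 2.85 and 2.75 TPM in control and 3.64 and 3.41 TPM in KO+OE, 5.39-fold to 7.10-fold over its germline-linked paralog TAF4B (0.43 and 0.51 TPM, then 0.64 and 0.48 TPM). TAF6 exceeded TAF6L, its SAGA counterpart, 5.80-fold to 6.86-fold, with TAF6L at 17.3 and 16.6 TPM in control and 14.4 and 16.4 TPM in KO+OE. TAF9 was at 5.91 and 5.14 TPM in control and 7.22 and 5.80 TPM in KO+OE, 8.43-fold to 12.2-fold over TAF9B, which was at 0.58 to 0.61 TPM. In these pairs TAF4, TAF6 and TAF9 were each more abundant than the paralog in every library. The level of TAF9 is uncertain because the gene overlaps another.

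The remaining pairs went their own ways. TAF5L, the SAGA form, was at 3.77 and 3.63 TPM in control and 4.08 and 3.39 TPM in KO+OE, 6.69-fold to 9.08-fold over TAF5, the reverse of the order seen for TAF6 and TAF6L. TAF7, which restrains TAF1, was at 18.8 and 19.2 TPM in control and 17.7 and 16.1 TPM in KO+OE. Its testis paralog TAF7L was at 0.02 and 0.08 TPM in control and 0.07 TPM and a listed 0 in KO+OE. TAF1L, the testis copy of TAF1, was listed at 0 in all 4 libraries, and reads from so close a copy may be hard to tell apart. TAF15, an RNA-binding protein of the FET family, was at 20.0 and 21.5 TPM in control and 22.2 and 19.1 TPM in KO+OE. The subunits of SL1, the TBP complex of RNA polymerase I, spanned 0.28 TPM (TAF1A) to 25.1 TPM (TAF1C), and TAF1B, at 1.0 and 1.05 TPM in control and 0.47 and 0.56 TPM in KO+OE, was below the level set for testing.

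**Figure D3:**
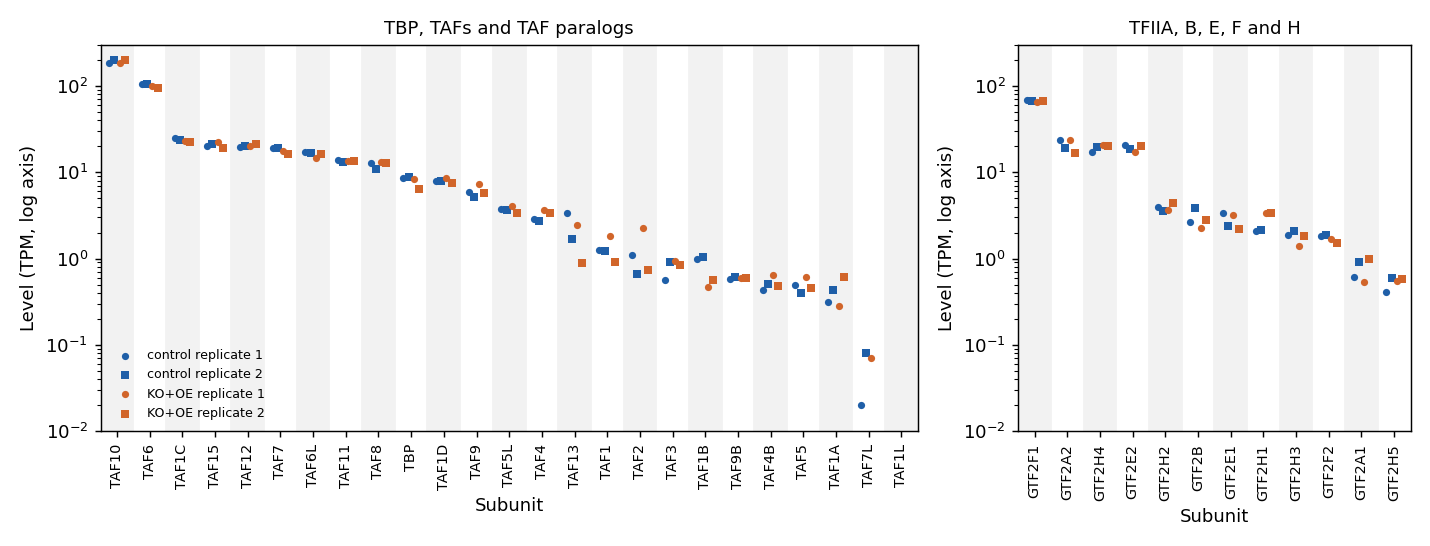
Level of TBP, the TAFs and their paralogs (left) and of the general factors (right) in TPM on a log axis, ordered by mean, 1 point per library with colours for the groups and shapes for the replicates. TAF10 and TAF6 stand apart at the top, and TAF1L in all libraries and TAF7L in KO+OE replicate 2 were listed at 0 and cannot be drawn on this axis.

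Of the 17 TAF genes tested, 0 passed an adjusted p of 0.05 in limma. TAF6 alone passed an unadjusted p of 0.05 (5.88%, against 5.33% of all genes tested). The control mean of 105 ± 0.438 TPM stood against 97.0 ± 2.74 TPM for KO+OE (n = 2 each, SD), without overlap, a log2 fold change of -0.11 (-0.22 to -0.01; limma, unadjusted p = 0.0401, adjusted p = 0.928). TBP lay lower in both KO+OE libraries, 8.75 ± 0.233 TPM against 7.39 ± 1.37 TPM, and its log2 fold change of -0.23 had an interval of -0.58 to 0.13. Leaving out KO+OE replicate 2 moved it to -0.059, and leaving out replicate 1 of that group to -0.39. TAF13, a partner of TAF11, was at 3.36 and 1.69 TPM in control and 2.43 and 0.89 TPM in KO+OE, and had the second most negative log2 fold change of all members, -0.43, with overlapping groups. TAF4, TAF9 and TAF1 had log2 fold changes of 0.25, 0.20 and 0.06, TAF10, TAF5L and TAF15 of -0.02, 0.01 and -0.01, and TAF7 and TAF6L of -0.16 and -0.13, all with intervals that included 0. The median over the 17 genes was 0.01, with 9 above and 8 below 0.

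Among the general factors the 2 subunits of a factor were often far apart. GTF2F1, the large subunit of TFIIF, which escorts the polymerase to the promoter, was the highest at 68.6 and 66.9 TPM in control and 64.5 and 66.8 TPM in KO+OE. Its partner GTF2F2 was at 1.53 to 1.86 TPM, a ratio of 36.0 to 43.6. GTF2E2 exceeded GTF2E1, the other subunit of TFIIE, 5.40-fold to 9.31-fold, and GTF2A2 exceeded GTF2A1, the large subunit of TFIIA, 16.9-fold to 44.1-fold. GTF2B, which bridges TBP and the polymerase, was at 2.66 and 3.88 TPM in control and 2.28 and 2.76 TPM in KO+OE. In the core of TFIIH, which opens the DNA and also serves DNA repair, GTF2H4 was at 16.9 to 20.9 TPM and GTF2H5 the lowest at 0.41 and 0.60 TPM in control and 0.55 and 0.58 TPM in KO+OE. GTF2H2 was at 3.57 to 4.39 TPM, a value that is uncertain because a near copy, GTF2H2C, was listed at 3.15 to 3.56 TPM. The quartiles of the 12 genes were 10.8-fold apart.

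Of the 10 general factor genes tested, 0 passed an adjusted p of 0.05 in limma. Of the same 10 genes, 1 passed an unadjusted p of 0.05, where 5.33% of all genes tested did. GTF2H1, a core TFIIH subunit at chr11:18322567-18367045 (GRCh38.p14), was at 2.10 and 2.12 TPM in control and 3.39 and 3.36 TPM in KO+OE. The libraries of each group lay close together and the groups did not overlap. The means were 2.11 ± 0.0141 TPM and 3.38 ± 0.0212 TPM (n = 2 each, SD), with a log2 fold change of 0.49 (0.15 to 0.84; limma, unadjusted p = 0.0145, adjusted p = 0.928). None of the other 3 GTF2H genes tested passed either threshold, and GTF2H5 was too low to be tested. GTF2B had a log2 fold change of -0.27 (-0.77 to 0.24), which moved to -0.47 when control replicate 1 was left out and to -0.060 when control replicate 2 was, GTF2F1 one of -0.05, and the median over the 10 genes was -0.07, with 3 above and 7 below 0.

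Taken over all complexes, 69 of the 83 members reached the mean of 1 TPM required for testing. None passed an adjusted p of 0.05 in limma, where 1 of all 12319 genes tested did (0.00812%), and 6 members passed an unadjusted p of 0.05 (8.70%), where 5.33% of all genes did. In the direction of KO+OE there were 4 such members (5.80%), MED31, GTF2H1, MED11 and MED30, against 2.26% of all genes, and in the direction of control 2 members (2.90%), POLR2I and TAF6, against 3.06%. Complete separation of the groups, which takes only 2 libraries on each side, was seen for 15 members with KO+OE higher (21.7%, against 14.5% of all genes) and for 18 with KO+OE lower (26.1%, against 19.6%). The 95% interval lay within 2-fold on the log2(TPM + 1) scale for 63 members (91.3%, against 92.6% of all genes). For low genes this bound is wider than 2-fold in TPM. The other 6 were POLR2M, CDK19, MED31, MED21, TAF13 and TAF2. The median log2 fold change was 0.0016 over the 69 members, with 35 above and 34 below 0, and -0.01 over all genes tested, of which 45.5% were above 0. In RNA from a bulk of cells, fewer cells of a kind and less RNA per cell cannot be told apart.

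**Figure D4:**
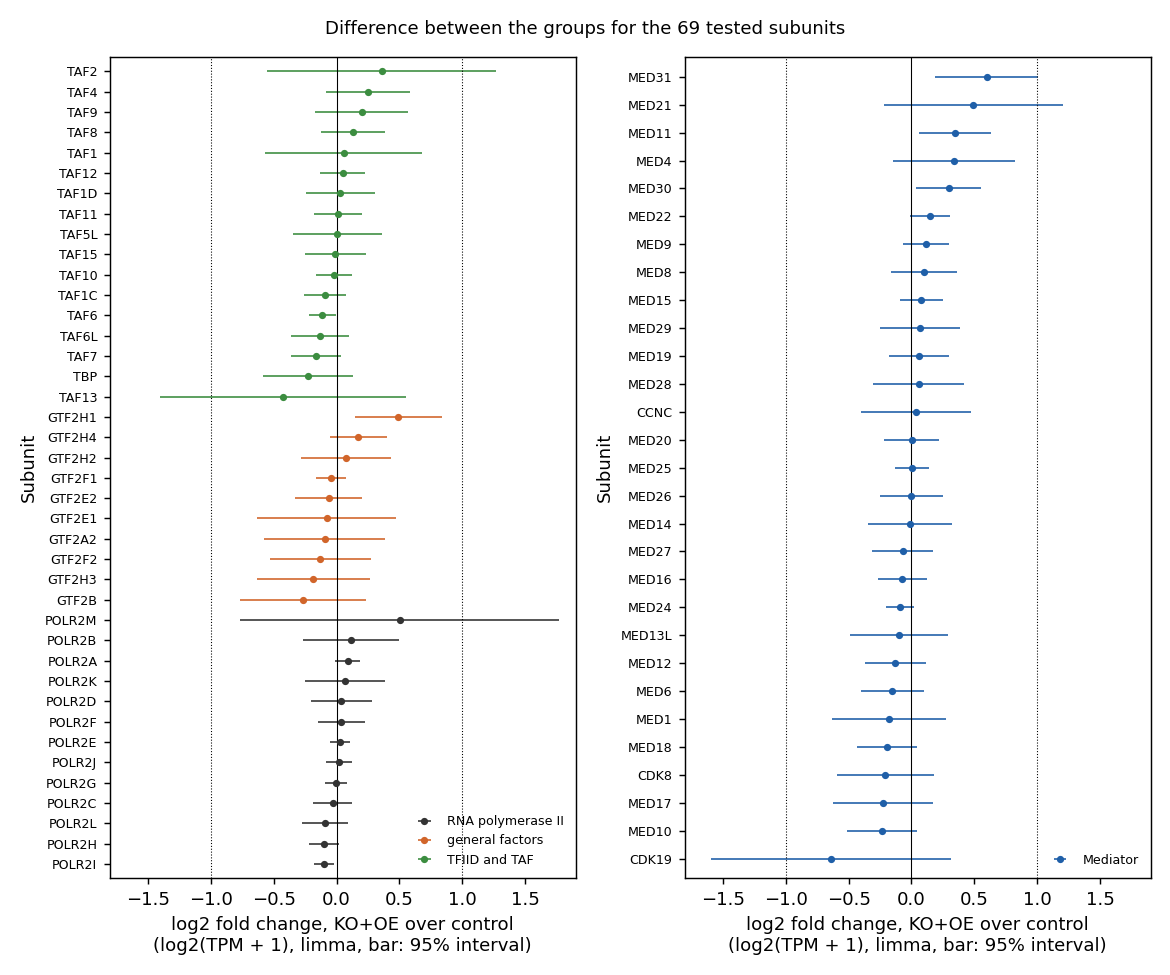
Log2 fold change of KO+OE over control on the log2(TPM + 1) scale (x axis) for the 69 members tested (y axis), with limma's 95% interval as a bar, RNA polymerase II, general factors and TAFs on the left and Mediator on the right, and dotted lines at a 2-fold difference on that scale. The points scatter about 0 in each complex, with MED31 at 0.60 and CDK19 at -0.64 at the ends.

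The proportions of subunits were then compared between libraries. The order of the 83 members by level was nearly the same in every pair of libraries, with a Spearman correlation across genes of 0.983 to 0.990. It was 0.990 between the control libraries, 0.986 between the KO+OE libraries and 0.983 to 0.989 between libraries of different groups. By complex it was 0.995 to 1.0 for the polymerase (13 genes), 0.973 to 0.992 for Mediator (33), 0.978 to 0.993 for the TAFs (25) and 0.930 to 0.958 for the general factors (12). These are descriptions across genes that share their libraries. Of 16 ratios between subunits or paralogs, 11 overlapped between the groups, 4 were lower in KO+OE and 1 was higher. Among single genes, 19.6% were separated with KO+OE lower and 14.5% with KO+OE higher, so separation of some ratios is no result about these subunits.

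The separated ratios are given as values. In the kinase module, where 3 ratios drew on the same 4 genes, MED12 over MED12L was 43.3 and 42.2 in control and 27.3 and 28.5 in KO+OE, MED13L over MED13 was 4.48 and 3.52 against 2.34 and 2.83, and MED12 over MED13 was 37.4 and 29.6 against 21.6 and 22.03. The denominators of these ratios, MED12L and MED13, were below 1 TPM in every library, where a change of 0.1 TPM is a large fraction. The other 2 separated ratios were TAF5L over TAF5 (7.69 and 9.08 against 6.69 and 7.53) and GTF2F1 over GTF2F2 (37.7 and 36.0 against 38.6 and 43.6). With 2 libraries against 2, an exact two-sided permutation test of a ratio cannot give a p below 0.333, so no ratio was tested.

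Across members, the level went with the base composition of the transcript. In the 37 members whose canonical transcript had a GC content of up to 45% the median of the mean level was 2.74 TPM, and it was 9.37 TPM in 17 members from 45% to 50%, 26.5 TPM in 10 members from 50% to 55% and 67.6 TPM in 19 members above 55%. All 14 members with a mean below 1 TPM had a GC content of at most 50%. The Spearman correlation across the 83 members was 0.666 to 0.688 per library for GC content and -0.349 to -0.306 for transcript length, and across the 12147 genes tested that had a GC content it was 0.264 to 0.277 and -0.194 to -0.186. The 83 members include the 14 with a mean below 1 TPM, whereas the genes tested leave such genes out, so the correlations are not of like sets. For the polymerase the GC correlation was 0.786 to 0.791, for Mediator 0.743 to 0.772, for the TAFs 0.460 to 0.515 and for the general factors 0.532 to 0.615. POLR2A (56.3% GC) and POLR2B (41.0% GC), MED16 (65.1%) and MED23 (41.4%), and GTF2F1 (58.5%) and GTF2F2 (38.6%) were partners that differed in both measures. Other members departed from the relation. GTF2A2 (38.9%, mean 20.6 TPM) and GTF2A1 (35.7%, mean 0.755 TPM) differed widely in level at a similar GC content. TAF4 had a mean of 3.16 TPM at a GC content of 58.2%. The part of library preparation, of the transcript lengths used and of the genes themselves in this relation was not tested.

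**Figure D5:**
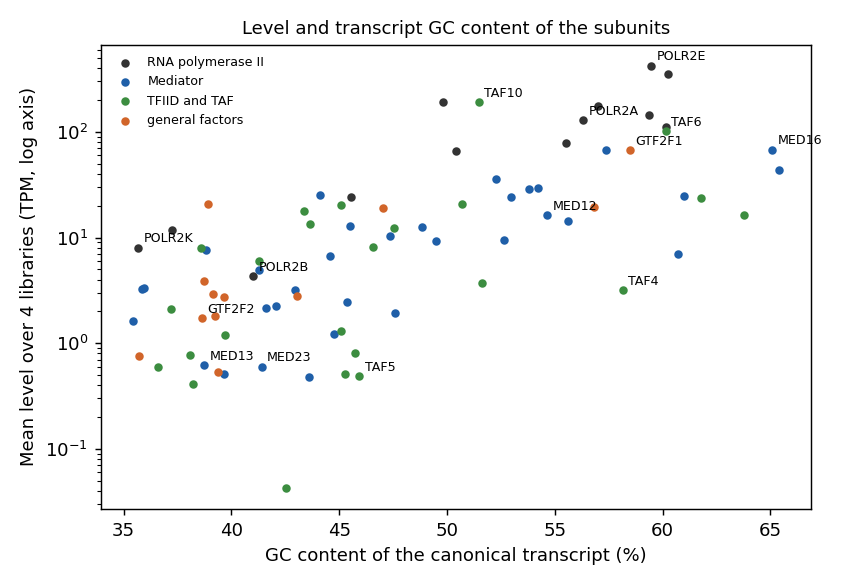
Mean level over the 4 libraries in TPM on a log axis (y axis) against the GC content of the canonical transcript in % (x axis), with 1 point per member coloured by complex and selected members named. The points climb from a median of 2.74 TPM at a GC content of up to 45% to 67.6 TPM above 55%, and TAF1L, listed at 0, is not drawn.

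Partners of these complexes served as a wider frame: the TFIIH subunits named otherwise, the pausing factors DSIF and NELF, the elongation kinase P-TEFb, histone chaperones, phosphatases of the C-terminal tail, polymerase assembly factors, TBP relatives, subunits of the other polymerases and near copies of members, 44 symbols on 46 entries. Of the 39 entries tested, 15 were higher and 24 lower in KO+OE with a median log2 fold change of -0.02. Among all genes tested, 45.5% were above 0, with a median of -0.01. None of the 39 entries passed an adjusted p of 0.05 in limma. A single entry passed an unadjusted p of 0.05, where 5.33% of all genes tested did. This was POLR2J3, a near copy of POLR2J, at 43.2 and 41.8 TPM in control and 47.5 and 50.6 TPM in KO+OE (log2 fold change 0.20, limma, unadjusted p = 0.0160, adjusted p = 0.928), while POLR2J itself had 0.02. A second entry of POLR2J3 (ENSG00000285437), at 11.53 and 7.64 TPM in control and 6.29 and 15.2 TPM in KO+OE, had a log2 fold change of 0.06 (limma, unadjusted p = 0.884, adjusted p = 0.990). RPAP3, an assembly factor of the polymerase, had the largest positive log2 fold change, 0.34, at 1.01 and 1.0 TPM in control and 1.32 and 1.77 TPM in KO+OE. The most negative were 1 of the entries of POLR2J4 (-0.59) and DR1, a repressor that binds TBP (-0.20). That POLR2J4 entry was at 1.45 and 3.49 TPM in control and 2.19 and 0.53 TPM in KO+OE. Its groups overlapped, its interval was -1.77 to 0.60, and the other POLR2J4 entry had a log2 fold change of -0.15. DR1 was at 5.37 and 5.51 TPM in control and 4.66 and 4.55 TPM in KO+OE. The 5 TFIIH subunits outside the GTF2H series, ERCC2, ERCC3, CDK7, CCNH and MNAT1, had log2 fold changes between -0.07 and 0.04, beside the 0.49 of GTF2H1.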

How the data were processed

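The authors deposited 1 table of gene values for the 4 libraries. Its header names no unit, and the deposited values were read as TPM because each column holds decimals and sums to nearly the same total. These features do not by themselves show a correction for length. TPM keeps no counts, and because libraries share 1 total, abundant transcripts depress the rest. Per the labels, poly(A+) RNA was selected with oligo(dT) beads and sequenced in pairs, and the submitters' processing notes name HISAT2, featureCounts of Subread, DESeq2 and hg38. The gene lengths used are not given in the sources used here. Groups and replicate numbers came from the sample titles.

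TPM was transformed to log2(TPM + 1), genes averaging at least 1 TPM were kept, and KO+OE was set against control in limma 3.58.1 (lmFit and trended eBayes, R 4.3.3), two-sided, with Benjamini-Hochberg adjustment over all genes tested. DESeq2, which the authors used, needs counts and was not run. The fit was tested on simulated data with known changes. These were larger than any seen in the members and were placed only in genes of higher level. That test does not cover small changes or low genes. Libraries with the same number did not deviate together (correlation -0.0485), so numbers were not taken as pairs. Values are named for catalytic, scaffold, kinase and paralogous members, for the highest and lowest of each complex, for members at an unadjusted p under 0.05, for the 3 largest differences each way, and for partners by the same kind of rule; further members appear by range. TAF1B, MED7, MED22, MED24 and CCAAT or TATA matches were picked once values were known. Members and lists were chosen with earlier results of these data known. Transcript GC content and length are of GENCODE 44 canonical transcripts, and positions and promoters are of RefSeq on GRCh38.p14. Other steps used scipy 1.17.1, numpy 2.4.6 and pandas 2.3.3 under Python 3.11.15.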

Additional observations from a re-analysis of the deposited data

How the results depend on the processing

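No member passed an adjusted p of 0.05 in limma under any alternative tried (a pseudocount of 0.1 or of 5, a filter at 5 TPM or none, 2 other scalings, no mean-dependent prior, a replicate block, each library left out), and the lowest adjusted p of a named gene was 0.759. The count at an unadjusted p of 0.05 stayed between 4 and 8, with the replicate block giving 0 at an adjusted and 4 at an unadjusted p (GTF2H1, MED11, MED31 and POLR2I). Rescaling by median ratios and quantile normalization added POLR2A, and no filter added POLR2A and TAF1B. With 1 library left out, the lone library is assumed to vary like the other group, so effect sizes from those fits are given below. The medians of the log2 fold change are near 0 and moved in sign. Quantile normalization gave 0.018 for all complexes, 0.047 for RNA polymerase II and 0.018 for Mediator, and median-ratio scaling gave 0.041 for RNA polymerase II. Leaving out each library gave -0.034 to 0.016 for all complexes, -0.016 to 0.016 for RNA polymerase II, -0.038 to 0.016 for Mediator, -0.098 to 0.030 for TFIID and TAFs and -0.091 to 0.025 for the general factors. The quartile ratios without paralogs and associated members were 3.23, 9.35 and 11.3. Of 34 named genes tested, 13 turned sign when 1 library was left out: CCNC (-0.14 to 0.21), MED14 (-0.12 to 0.10), MED16 (-0.17 to 0.031), MED26 (-0.034 to 0.034), POLR2B (-0.0060 to 0.24), POLR2D (-0.078 to 0.16), POLR2G (-0.016 to 0.011), POLR2M (-0.19 to 1.19), TAF1 (-0.22 to 0.33), TAF10 (-0.073 to 0.038), TAF13 (-0.86 to 0.0022), TAF15 (-0.11 to 0.10) and TAF5L (-0.10 to 0.11). With median-ratio scaling and quantile normalization, 3 turned sign: MED26 to 0.011 and 0.018, POLR2G to 0.011 and 0.0045, and TAF15 to 0.0039 and 0.0027. The cause was not tested. Depth is unknown, so the counting error, which weighs most on values below 1 TPM, cannot be stated.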
